A study of Mus musculus with 3 samples.

Results

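The genes described here are 7 genes known from basophils and mast cells, Mcpt8, Cpa3, Prss34, Fcer1a, Ms4a2, Hdc and Alox5, measured in spleen T cells that had been activated in culture. They were chosen by symbol, with earlier results of these libraries known, and all 7 are among the 17796 genes listed. Basophils and mast cells are rare blood-derived cells that carry the high-affinity receptor for immunoglobulin E (IgE) on their surface. When antigen crosslinks that receptor they empty granules of proteases and histamine and make leukotrienes, and basophils live in blood and spleen while mast cells mature in tissues. None of these genes defines a T cell, and RNA from a bulk culture does not show which cells it came from.

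The study asked how fumarate, a small acid of the mitochondrial citrate cycle, affects T cells of aged mice. The 3 libraries came from C57BL/6 mice. The young group was 2 months old and is labelled vehicle. The aged vehicle group, titled Old, and the aged fumarate group, titled Old + Fumarate, were described as 24 months old, and fumarate was dosed at 10 mg/kg, 3 times a week for 2 months. The labels do not say whether that age was at the start or the end of dosing, whether the young mice were dosed over the same course, or how many mice gave each library. Cells of all 3 groups were cultured for 3 days on antibodies against CD3 at 2 ug/ml and CD28 at 5 ug/ml, with interleukin 2 at 100 IU/ml. Each group had 1 library, so the differences have no replicate check and no p-value.

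Levels are given in CPM, the reads of a gene per 1000000 reads of its library. The worth of 1 read, seen in the steps of low values, put the depth of the young library at 41.0 M reads (M, 1000000), that of aged vehicle at 17.3 M and that of aged fumarate at 13.9 M. All 20 genes of a T cell identity list were listed and within 2-fold in each pair of libraries, with summed levels of 5407, 4714 and 5716 CPM in that order. The 95% intervals are exact intervals on those reads and cover counting error only, not the spread between mice. A gene with no read could have had up to 3, which is 0.0732 CPM in the young, 0.174 CPM in the aged vehicle and 0.217 CPM in the aged fumarate library. A gene is called higher or lower in a pair of libraries when its CPM + 1 differed by at least 2-fold, and the log2 ratios are those of CPM + 1, which are smaller than plain ratios for low genes.

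All 7 genes were lowest in the young library, highest in the aged vehicle library and intermediate in the aged fumarate library. Their summed level was 2.59 CPM in the young, 476 CPM in the aged vehicle and 78.0 CPM in the aged fumarate library. The aged vehicle sum was 184-fold the young sum (interval 152 to 225), and the fumarate sum was 6.10-fold below vehicle (5.73 to 6.51) and 30.1-fold above young (24.7 to 37.2). Hdc alone made up 76.4% of the young sum, which is 106 reads. These are the values the genes were chosen with, so their direction is a description of the libraries and supports nothing further. In bulk RNA, fewer basophils or mast cells and less of this RNA per cell cannot be told apart.

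**Figure D1:**
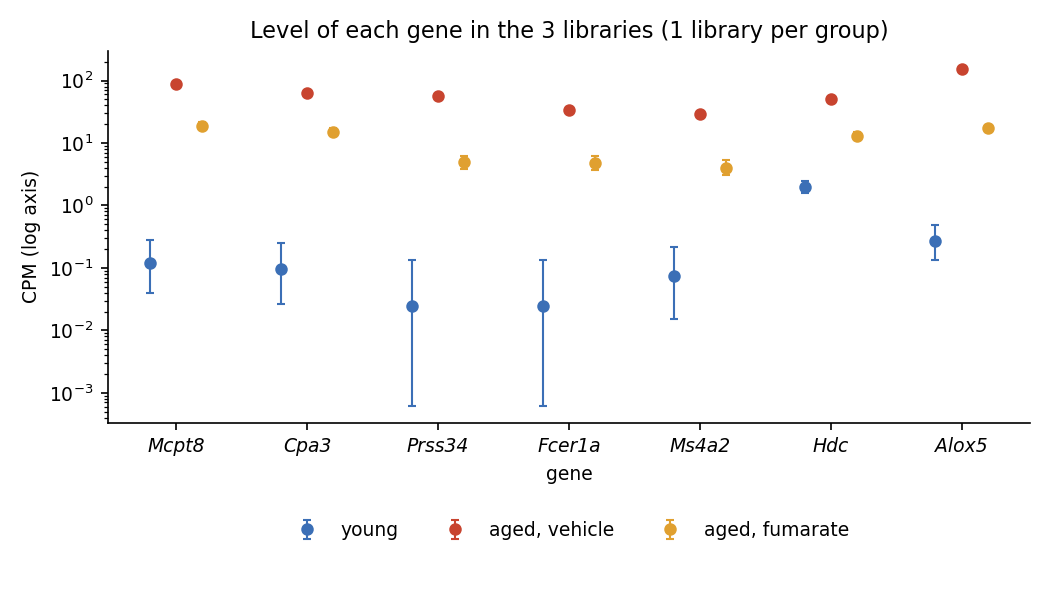
CPM of the 7 genes (log axis) in each library, with 1 point per library and bars for the exact 95% Poisson interval of its reads. In each gene the vehicle point is the highest, from 29.1 to 155 CPM, the fumarate point lies between 4.04 and 18.9 CPM, and the young point is the lowest, at or under 1.98 CPM.

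The sequence upstream of these genes was read because they were high in the same library and because GATA2, a factor that basophils and mast cells need, binds the letters AGATAA. RefSeq start sites on GRCm38.p6 were matched for 7 of 7 genes, and the 250 bases before each start were searched on both strands. AGATAA was in 4 of the 7 windows, against 9.99% of the 32851 windows of all RefSeq promoters. The 4 windows are printed 5′ to 3′ on the strand of the gene, ending at the base before the start, with AGATAA or its reverse complement TTATCT in capitals. They are Cpa3 at chr3:20242182-20242431 (minus strand), Prss34 at chr17:25298144-25298393 (plus strand), Fcer1a at chr1:173227230-173227479 (minus strand) and Ms4a2 at chr19:11623720-11623969 (minus strand).
Cpa3: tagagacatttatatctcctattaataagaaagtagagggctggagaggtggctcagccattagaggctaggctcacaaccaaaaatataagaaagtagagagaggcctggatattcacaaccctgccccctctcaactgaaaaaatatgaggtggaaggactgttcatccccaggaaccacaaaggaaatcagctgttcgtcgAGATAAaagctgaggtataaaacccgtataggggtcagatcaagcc
Prss34: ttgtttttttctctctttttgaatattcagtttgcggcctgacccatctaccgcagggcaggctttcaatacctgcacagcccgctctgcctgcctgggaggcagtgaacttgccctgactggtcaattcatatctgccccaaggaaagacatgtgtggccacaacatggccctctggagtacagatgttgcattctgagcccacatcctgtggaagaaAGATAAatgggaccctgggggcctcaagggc
Fcer1a: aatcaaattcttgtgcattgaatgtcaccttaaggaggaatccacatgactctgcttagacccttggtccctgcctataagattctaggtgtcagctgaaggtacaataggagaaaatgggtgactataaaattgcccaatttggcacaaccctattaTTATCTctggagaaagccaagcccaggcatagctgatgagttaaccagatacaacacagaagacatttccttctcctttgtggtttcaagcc
Ms4a2: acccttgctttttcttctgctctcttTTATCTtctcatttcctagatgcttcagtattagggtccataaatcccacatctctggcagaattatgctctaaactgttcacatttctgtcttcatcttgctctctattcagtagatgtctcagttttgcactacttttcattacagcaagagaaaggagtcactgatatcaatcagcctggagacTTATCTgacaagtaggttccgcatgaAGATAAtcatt

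The match lay 46 to 41 bases before the start in Cpa3 and 31 to 26 bases before it in Prss34. In Fcer1a it was on the opposite strand, 92 to 87 bases before the start, and Ms4a2 held 3 matches, of which 2 were within 37 bases of the start. The letters TATAAA were in 2 of the 7 windows, those of Cpa3 and Fcer1a, against 12.4% of all windows. The letters TTCNNNGAA, the form bound by STAT factors, were in none of the 7, against 7.02% of all windows. A match is a stretch of letters and not a measured binding site, and nothing is read from a window without one. Mcpt8, Hdc and Alox5 had no AGATAA in this window. The RefSeq starts of Hdc, Mcpt8 and Fcer1a differ from the gene positions given below. The Fcer1a window lies wholly upstream of its gene position, which ends at 173227214, and does not adjoin it. The Hdc window, chr2:126618679-126618928, lies wholly inside its gene position, and the Mcpt8 window, chr14:56085198-56085447, lies partly inside its own.

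Among the granule proteases, Mcpt8 encodes a basophil granule protease of the chymase locus (mm10, chr14:56082166-56085273, minus strand, 5 exons). It was at 0.122 CPM in the young library (5 reads), 86.7 CPM in aged vehicle (1497 reads) and 18.9 CPM in aged fumarate (262 reads). Plain CPM of Mcpt8 was 711-fold higher in vehicle than in young (interval 304 to 2192), and the fumarate level was 21.8% of vehicle (19.1% to 24.9%). Cpa3 encodes carboxypeptidase A3, a granule enzyme of mast cells that basophils and some blood progenitors also express (chr3:20215620-20242181, minus strand, 12 exons). It was at 0.0976 CPM in young (4 reads), 64.1 CPM in vehicle (1107 reads) and 14.9 CPM with fumarate (207 reads). Cpa3 was 657-fold higher in vehicle than in young (256 to 2416) and at 23.3% of vehicle with fumarate (19.99% to 27.1%).

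Prss34 encodes a tryptase-like protease of basophils (chr17:25298394-25300165, plus strand, 5 exons). It was at 0.0244 CPM in the young library, which is 1 read, at 55.7 CPM in vehicle (962 reads) and at 4.98 CPM with fumarate (69 reads). With a single young read the ratio of vehicle to young, 2284, had an interval of 409 to 90303. The fumarate level of Prss34 was 8.94% of vehicle (6.90% to 11.4%), the lowest share of the 7 genes, and its interval lay wholly below those of Mcpt8 and Cpa3. The 3 proteases were alike in having 5 or fewer young reads. In the share of the vehicle level found with fumarate, Prss34 stood apart from Mcpt8 and Cpa3, whose intervals overlapped.

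The IgE receptor is built from an alpha chain that binds IgE, a beta chain that amplifies the signal and a gamma chain that carries it into the cell. Fcer1a, the alpha chain (chr1:173221284-173227214, minus strand, 5 exons), was at 0.0244 CPM in young (1 read), 34.2 CPM in vehicle (591 reads) and 4.84 CPM with fumarate (67 reads). Ms4a2, the beta chain (chr19:11615523-11623719, minus strand, 8 merged exons), was at 0.0732, 29.1 and 4.04 CPM, from 3, 503 and 56 reads. Both chains were at nearly the same share of vehicle in the fumarate library, 14.1% for Fcer1a (10.8% to 18.2%) and 13.9% for Ms4a2 (10.3% to 18.3%). Over young, vehicle was 1403-fold higher for Fcer1a (251 to 55513) and 398-fold higher for Ms4a2 (135 to 1937), intervals that overlap.

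Fcer1g, the gamma chain, is shared with other Fc receptors and with NK cells and other myeloid cells, and is named here because it completes the receptor. It was at 0.756 CPM in young, 14.5 CPM in vehicle and 7.36 CPM with fumarate. Its log2 ratio of vehicle over young was 3.15, and that of fumarate over vehicle was -0.89, inside the 2-fold limit, although it went past the limit, at -1.15, when libraries were scaled to T cell identity genes. Per kb of exon, the level in vehicle was 34.3 CPM for the alpha chain, 10.4 for the beta chain and 16.6 for the gamma chain, and with fumarate it was 4.85, 1.44 and 8.42, so that the gamma chain stood above the alpha chain with fumarate and below it with vehicle.

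The remaining 2 genes encode enzymes that make mediators. Hdc, histidine decarboxylase, makes histamine (chr2:126593667-126619299, minus strand, 12 exons). It was the member with the most young reads, 81, and stood at 1.98 CPM in young, 51.1 CPM in vehicle and 13.0 CPM with fumarate. Vehicle was 25.9-fold higher than young (20.6 to 32.9), and fumarate was at 25.4% of vehicle (21.5% to 29.9%). The Hdc interval over young lay wholly below those of the other 6 genes. Among those 6 genes all intervals overlapped, and 5 of the 6 rest on 5 or fewer young reads.

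Alox5, arachidonate 5-lipoxygenase, starts leukotriene synthesis and is also expressed by neutrophils, macrophages and other white cells (chr6:116410077-116461178, minus strand, 12 exons). It had the highest CPM of the 7 in vehicle, at 155 CPM (2671 reads), against 0.268 CPM in young (11 reads) and 17.3 CPM with fumarate (239 reads). Vehicle was 576-fold higher than young (322 to 1156). With fumarate Alox5 was at 11.2% of vehicle (9.73% to 12.7%). Its log2 ratio of vehicle over young was 6.94, the highest of the 7 genes and rank 5 of 17796.

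**Figure D2:**
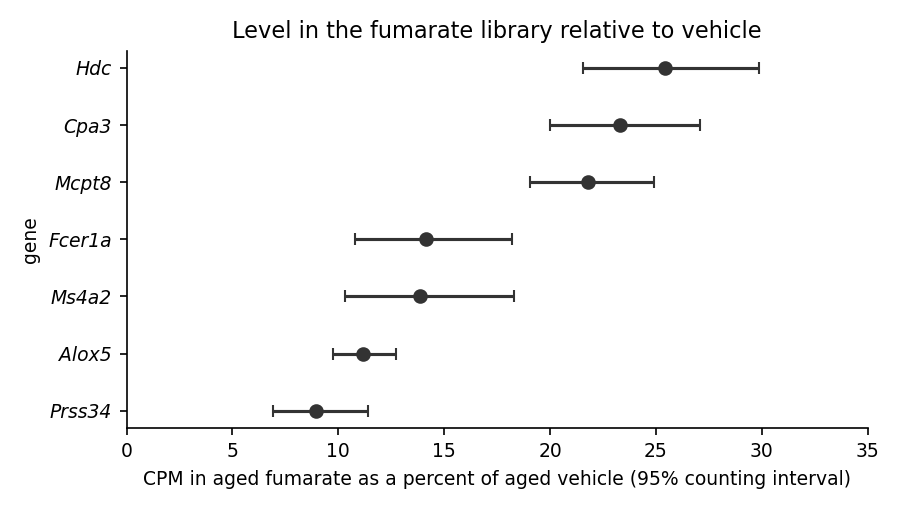
CPM in the aged fumarate library as a percent of the aged vehicle library for each of the 7 genes, 1 library each, with exact 95% counting intervals. Hdc, Cpa3 and Mcpt8 lie between 21.8% and 25.4%, and the other 4 genes between 8.94% and 14.1%.

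By the share of vehicle found with fumarate, the 7 genes are described here in 2 sets. Mcpt8, Cpa3 and Hdc were at 21.8% to 25.4%, and Prss34, Alox5, Ms4a2 and Fcer1a at 8.94% to 14.1%. Of 21 pairs of genes, the 12 that cross these 2 sets had intervals that did not overlap, and all pairs within a set had intervals that did. The sets were drawn from these same shares, so this separation describes them and is no support for them. Of the genes with AGATAA upstream, Cpa3 is in the first set and Prss34, Fcer1a and Ms4a2 are in the second. Set against Mcpt8 within each library, Cpa3 was at 0.739 of the Mcpt8 CPM in vehicle (0.684 to 0.7998) and 0.790 with fumarate (0.655 to 0.952), a ratio that did not differ beyond counting error. Prss34 was at 0.643 of Mcpt8 in vehicle (0.592 to 0.697) and 0.263 with fumarate (0.199 to 0.345), and Alox5 at 1.78 (1.67 to 1.90) and 0.912 (0.762 to 1.09). Fcer1a was at 0.395 (0.358 to 0.435) and 0.256 (0.193 to 0.336), and Ms4a2 at 0.336 (0.303 to 0.372) and 0.214 (0.157 to 0.286). Against Mcpt8 these 4 genes had a lower ratio in the fumarate library than in the vehicle library by more than counting error. Cpa3 and Hdc had intervals that overlapped, with Hdc at 0.589 (0.542 to 0.641) and 0.687 (0.565 to 0.834). The ratios to Mcpt8 use the same values as the shares of vehicle, so they restate the 2 sets and are no support for them. The spread of such ratios between mice was not measured.

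Levels of different genes can be compared only per length of transcript. In aged vehicle Mcpt8 was highest at 86.9 CPM per kb of merged exon, followed by Prss34 at 45.7, Cpa3 at 42.3, Alox5 at 37.7, Fcer1a at 34.3, Ms4a2 at 10.4 and Hdc at 7.996. In that order the intervals of the neighbours Prss34 and Cpa3 overlapped, as did those of Alox5 and Fcer1a, which does not show that their levels were equal. In aged fumarate the order was Mcpt8 at 18.9, Cpa3 at 9.85, Fcer1a at 4.85, Alox5 at 4.20, Prss34 at 4.08, Hdc at 2.03 and Ms4a2 at 1.44 CPM per kb. Fcer1a, Alox5 and Prss34 had overlapping intervals there, as had Hdc and Ms4a2. Mcpt8 led in both aged libraries and Prss34 went from the second to the fifth place. In the young library Hdc led at 0.309 CPM per kb, and the other 6 genes were at 0.020 to 0.122.

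By the 2-fold rule all 7 genes were higher in aged vehicle than in young, with a median log2 ratio of 5.79 (4.13 to 6.94) against 0.04 over all genes, where 8.96% of genes were higher and 1.71% lower. All 7 were lower with fumarate than with vehicle, with a median of -2.58 (-3.25 to -1.90) against -0.04 over all genes, where 5.87% were lower and 0.258% higher. All 7 were higher with fumarate than in young, with a median of 2.55 (2.23 to 4.15) against 0.00, where 3.99% were higher and 1.95% lower. In plain CPM the fumarate level was 6.57-fold the young level for Hdc (5.03 to 8.66) and 55.2-fold for Ms4a2 (18.0 to 276), and the ratios of the other 5 genes were 64.3 to 204. With 5 CPM added in place of 1 CPM, 4 of the 7 were higher in this last pair, since Prss34, Fcer1a and Ms4a2 were at 4.04 to 4.98 CPM. The pairs share libraries, so that the vehicle library stands in both the first and the second pair and these counts are not independent of each other.

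**Figure D3:**
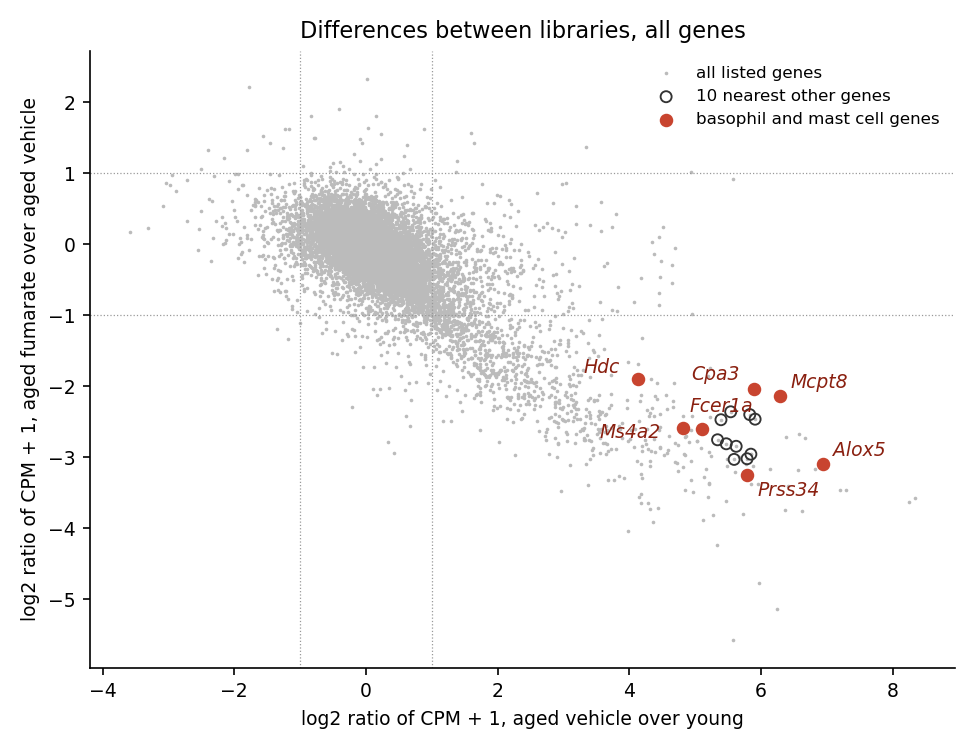
Log2 ratio of CPM + 1 for aged vehicle over young (horizontal) and aged fumarate over aged vehicle (vertical), 1 point per listed gene, with dotted lines at 2-fold. The 7 genes (filled) lie at 4.13 to 6.94 and -3.25 to -1.90, beside the 10 other genes with the nearest pattern (open circles). Both axes use the vehicle library.

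The read counts of the 7 genes were little open to confusion with other genes. All 21 values fell on whole reads, the farthest by 0.00992 of a read. Of all 50-base windows of their GENCODE M21 transcripts, none was shared with another gene for Mcpt8, Cpa3, Prss34, Fcer1a and Alox5, 0.141% were for Hdc and 2.10% for Ms4a2, the latter with Ms4a4b. No gene on the opposite strand overlapped any of the 7, and the microRNA genes Mir6949 and Mir7007 lie within Mcpt8 and Cpa3 on the same strand.

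The genes lie on 7 chromosomes. Of the 14 nearest listed protein-coding genes on either side with at least 1 CPM in a library, 6 were higher in vehicle than in young, 8 were within 2-fold and none was lower. Ctsg, which encodes cathepsin G, a granule protease of the same chymase locus, lies 14.6 kb from Mcpt8 and was at 0.0244 CPM in young, 44.8 CPM in vehicle and 4.62 CPM with fumarate. Ms4a3, a gene of granulocyte and monocyte progenitors, lies 5.78 kb from Ms4a2 and was at 0.0244, 16.9 and 1.15 CPM. Ackr1, the Duffy chemokine receptor, was at 0, 6.97 and 0.433 CPM at 105 kb from Fcer1a. The other 3 were Dusp23, Ms4a6d and Marchf8, with log2 ratios of 1.05 to 1.24. Near Hdc, Cpa3 and Prss34 all 6 neighbours were within 2-fold, although Atp8b4, beside Hdc, was at a log2 ratio of 1.008 when libraries were scaled to T cell identity genes.

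Other genes of these cells were counted from lists. Of 17 further granule genes 6 were listed, and 4 of them were higher in vehicle than in young and 3 lower with fumarate than with vehicle. Slc18a2, the vesicle transporter that loads histamine, was at 1.68 CPM in young, 83.4 CPM in vehicle and 6.496 CPM with fumarate. Cd63, a granule membrane protein that appears on the surface of activated basophils, was at 1.24, 75.6 and 9.50 CPM. Srgn, the proteoglycan core of granules in many white cells including T cells, was at 386 CPM in young, 1230 CPM in vehicle and 979 CPM with fumarate, with log2 ratios of 1.67 for vehicle over young and -0.33 for fumarate over vehicle.

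Markers of tissue mast cells and of basophils were counted separately. Of 11 markers of tissue mast cells 3 were listed, Slc18a2, Kit and Mitf. Of these, 2 were higher in vehicle than in young and 2 lower with fumarate than with vehicle. Slc18a2, also counted among the granule genes above, was at 1.68, 83.4 and 6.496 CPM. The 8 others, including the proteases Cma1, Mcpt4, Tpsb2 and Tpsab1, were not analysed here. The table lists no gene with an estimated sum of fewer than 10 reads. Kit, the stem cell factor receptor of mast cells and blood progenitors, was at 2.90 CPM in young, 9.85 CPM in vehicle and 2.89 CPM with fumarate. Mitf, a transcription factor of mast cells, was at 0.732, 1.62 and 1.23 CPM and within 2-fold in every pair, although its log2 ratio of vehicle over young was 1.05 with 0.1 CPM added. Of 10 basophil markers all were listed, 9 were higher in vehicle than in young and 8 lower with fumarate than with vehicle. Il3ra, the alpha chain of the interleukin 3 receptor, was within 2-fold in both pairs, at 8.98, 15.7 and 13.5 CPM. Itga2 was higher in vehicle than in young but within 2-fold for fumarate over vehicle, at 1.56, 8.75 and 7.94 CPM. The basophil list holds 6 of the 7 genes above and is not separate evidence.

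Receptors and surface proteins were mixed. Of 24 in the list 18 were listed, 10 were higher in vehicle than in young and 7 lower with fumarate than with vehicle, with medians of 1.16 and -0.54. Csf2rb, the shared beta chain of the interleukin 3, interleukin 5 and GM-CSF receptors, went from 0.651 CPM in young to 536 CPM in vehicle and 44.0 CPM with fumarate. Its near copy Csf2rb2, which binds interleukin 3, was at 0.325, 400 and 31.4 CPM, and how reads were divided between them is uncertain. Il1rl1, the interleukin 33 receptor of basophils, mast cells and some T cells, was at 0.610, 34.5 and 5.77 CPM. Cd200r3, an activating receptor of basophils and mast cells, was at 0.0732, 9.33 and 1.88 CPM.

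Of the signalling genes of the IgE receptor all 14 were listed, 7 were higher in vehicle than in young and 6 lower with fumarate than with vehicle. Syk, the kinase that the gamma chain recruits, was at 1.29 CPM in young, 133 CPM in vehicle and 14.4 CPM with fumarate. Btk, a kinase of myeloid and B cells, was at 0.781, 50.9 and 7.002 CPM. Lyn, the kinase that starts the signal, was at 1.37, 36.1 and 7.15 CPM, and Lat2, its adaptor, at 0.792, 20.99 and 6.93 CPM. The 7 within 2-fold in that first pair were Fyn, Lat, Lcp2, Plcg1, Inpp5d, Ptpn6 and Vav1, all of which T cells also express, with log2 ratios of -0.52 to 0.59.

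Of 12 genes of lipid mediators and related enzymes, Cyp11a1, Tbxas1 and Gpx4 among them, 11 were listed, 9 were higher in vehicle than in young and 8 lower with fumarate than with vehicle, with medians of 4.17 and -1.85. Alox5ap, the protein that presents arachidonic acid to 5-lipoxygenase, was at 0.293 CPM in young, 27.7 CPM in vehicle and 3.83 CPM with fumarate, and is named as the partner of Alox5. Ltc4s, which makes leukotriene C4, was listed at 0 CPM in young and at 1.16 and 0.144 CPM in vehicle and fumarate. Lta4h, which turns leukotriene A4 into B4, was at 103, 84.1 and 88.1 CPM. Ptgs1, cyclooxygenase 1, was at 0.317, 111 and 9.60 CPM and Tbxas1, thromboxane synthase, at 0.244, 61.9 and 6.93 CPM, 2 enzymes that platelets also carry. Pla2g4a, the phospholipase that frees arachidonic acid, was at 0.610, 58.7 and 6.86 CPM. Cyp11a1, a steroid-making enzyme, was at 0.903, 68.6 and 18.3 CPM.

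Of 19 transcription factors of the lineage, all were listed, 12 were higher in vehicle than in young, 1 was lower and 12 were lower with fumarate than with vehicle. Gata2, needed by basophils, mast cells and blood stem cells, was at 0.122 CPM in young, 113 CPM in vehicle and 16.2 CPM with fumarate. Tal1, Lmo2 and Nfe2, factors of blood progenitors, red cells and megakaryocytes, were at 77.6, 96.8 and 73.5 CPM in vehicle, under 1 CPM each in young, and at 6.57, 11.6 and 6.64 CPM with fumarate. The lower gene was Irf8, a factor of monocytes, dendritic and lymphoid cells, at 428, 146 and 238 CPM.

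Cytokines that basophils and mast cells make are also made by T cells. Of 15 in the list 14 were listed, and 12 were higher in vehicle than in young but 3 lower with fumarate than with vehicle, with medians of 1.78 and -0.49. Il13 was at 7.47 CPM in young, 120 CPM in vehicle and 78.4 CPM with fumarate. Il9 was at 0.317, 6.31 and 5.56 CPM. Il10 and Il6 were lower with fumarate, Il10 at 1.83, 43.7 and 13.2 CPM and Il6 at 0.464, 14.9 and 4.69 CPM. Il4, the cytokine basophils are best known for, was at 0.171, 2.43 and 1.44 CPM.

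**Figure D4:**
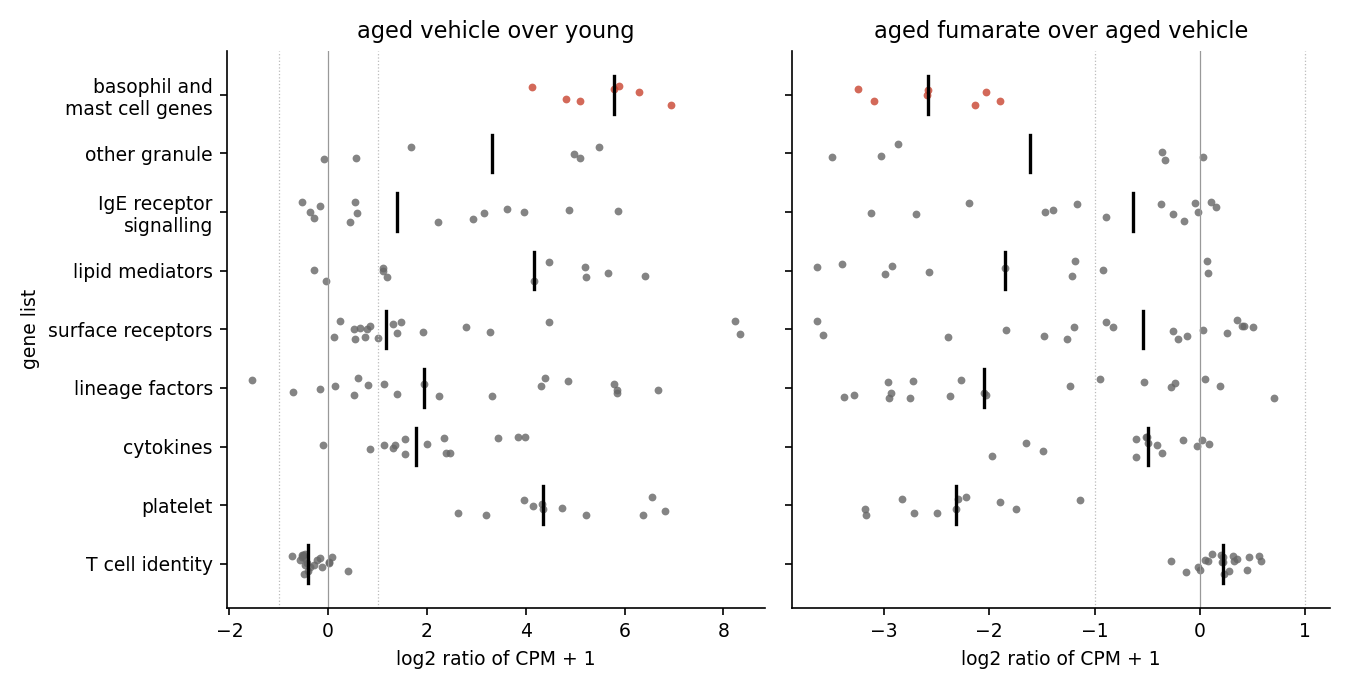
Log2 ratio of CPM + 1 for each listed gene (points) and the median of each list (bars), for aged vehicle over young and aged fumarate over aged vehicle, 1 library per group, with dotted lines at 2-fold. The medians of the 7 genes are 5.79 and -2.58, those of the platelet list 4.35 and -2.31, and those of the T cell identity list -0.42 and 0.22.

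Summed markers of platelets, erythroid cells, progenitors, neutrophils, macrophages and eosinophils were highest in the vehicle library, and those of B, dendritic and NK cells were highest with fumarate. By the 2-fold rule, however, 0 B, dendritic or NK markers were higher with fumarate than with vehicle. Lower in that pair were 1 of 11 B cell, 0 of 6 dendritic and 2 of 9 NK markers. With fumarate, Batf3 was at 128 of the 149 CPM of the dendritic sum. Klrc1 was at 142 of the 305 CPM for NK cells, and Ebf1 at 9.31 of the 20.4 CPM for B cells. All 11 platelet markers were higher in vehicle than in young, with summed levels of 42.6 CPM in young, 1855 CPM in vehicle and 280 CPM with fumarate. The counts of the other cell types that follow are for that same pair, vehicle over young. Of listed genes, 8 of 10 erythroid markers were higher (sums of 2.54, 145 and 7.43 CPM, with 3 at 0 in young), as were 8 of 10 progenitor markers (8.22, 161 and 26.1 CPM, with Hoxa9, Mecom and Myct1 at 0 in young), 8 of 9 neutrophil markers (0.171, 18.6 and 1.88 CPM, with 5 at 0 in young), 5 of 9 macrophage markers (3.05, 34.0 and 5.49 CPM, with 3 at 0 in young) and 3 of 4 eosinophil markers (0.171, 11.4 and 3.03 CPM, with Epx at 0 in young). B cell markers were higher in 1 of 11 cases (7.76, 19.6 and 20.4 CPM), dendritic cell markers in 2 of 6 (50.1, 96.0 and 149 CPM) and NK cell markers in 5 of 9 (112, 224 and 305 CPM). The part of these cell types in the levels of the 7 genes was not tested, and Alox5, Hdc and Cpa3 are known from some of them.

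The 10 other genes nearest to the pattern of the 7 were found by the distance of their 2 log2 ratios, vehicle over young and fumarate over vehicle, from the median of the 7, among 8938 genes outside the lists with at least 10 CPM in a library. With only 3 libraries this likeness is a description. Ccl6, a chemokine of myeloid cells, was nearest at a distance of 0.17, with 0.0244 CPM in young, 60.6 CPM in vehicle and 10.2 CPM with fumarate. Mrvi1 followed at 0.19, then Rgs18, Parvb, Mmrn1, Samd14, Gp5, Casp12, Cavin2 and Rab44 at up to 0.49. Gp5 encodes a platelet glycoprotein and Mmrn1 a platelet and endothelial protein, and they were at 64.5 and 78.9 CPM in vehicle and at 10.8 and 9.31 CPM with fumarate. Of the 7 genes themselves, Cpa3 was nearest to their median at 0.56 and Hdc farthest at 1.80.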

How the data were processed

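The RNA libraries of 3 groups, 1 each, were made from polyadenylated RNA of spleen T cells with a SMARTER mRNA kit from 500 ng of total RNA, per the labels' protocols. The aligner STAR, the Partek software and the build mm10 are named in the submitters' processing notes. Versions, annotation and strand setting were not given in the sources used here. Although its name says raw counts, the deposited table holds CPM, since each column sums to 1000000. Depth was worked out from the smallest spacing of low values, taken as 1 read. With a tolerance of 0.02 reads, 67.1% to 71.4% of values under 1000 reads were whole, so reads were not recovered for all genes and no count model was used. Values under 1e-06 CPM were read as 0.

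The 7 genes, gene lists and limits were chosen with earlier results of these data known. Comparisons used the log2 ratio of CPM + 1 with a 2-fold limit, exact Poisson intervals for levels and Clopper-Pearson intervals for ratios. The table's ends lie 1 base past those of GENCODE M21, and after subtracting it the positions of all 7 genes were equal to M21. Lengths are merged M21 exons. Named from each list were up to 4 genes with the largest log2 ratio of vehicle over young and at least 1 CPM in a library, and the 10 protein-coding genes of nearest pattern outside the lists, without predicted, T cell receptor, immunoglobulin and mitochondrial genes. Fcer1g, Alox5ap, Ltc4s, Lta4h, Kit, Mitf, Il3ra, Irf8, Il4, the 7 signalling genes within 2-fold and the neighbours were chosen after their values were seen. So were Itga2, Batf3, Klrc1 and Ebf1. Fold calls, intervals and the read step were tested on simulated reads with Poisson noise only. Intervals were checked there for genes with a mean of at least 10 CPM. Intervals on as few reads as most of the 7 genes had in the young library were therefore not covered. No protein sequences were used here. Calculations ran on pandas 2.3.3, scipy 1.17.1 and numpy 2.4.6 under Python 3.11.15, and plots on matplotlib 3.10.9.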

Additional observations from a re-analysis of the deposited data

How the results depend on the processing

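All 7 genes kept their direction in the 3 pairs of libraries under every alternative run, which were 4 scalings, 3 added constants, 2 filters, thinning to the smallest library and another total, and all 7 passed each filter. The number of genes past the limit was 7 of 7 in each pair under each of these and with limits of 1.5-fold and 3-fold, except 4 of 7 (without Prss34, Fcer1a and Ms4a2) for fumarate over young with 5 CPM added. No paired analysis was possible because each group has 1 library, and for the same reason no replicate could be left out. Scaling to T cell identity genes moved the median of all genes by 0.18 (vehicle over young), -0.26 (fumarate over vehicle) and -0.07 (fumarate over young). The median of the 7 for vehicle over young was then 5.95 with that shift left in, and the other scalings moved all genes by less than 0.1.

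The added constant sets the log2 ratio of genes near 0. With 0.1, 0.5 and 5 CPM added, the median of the 7 was 8.34, 6.74 and 3.60 for vehicle over young and 5.35, 3.39 and 1.37 for fumarate over young, and with 5 CPM it was -1.94 for fumarate over vehicle. Without Alox5 the median of vehicle over young was 5.45. The count of all genes higher in vehicle than in young, 1595, was 2612 with 0.1 CPM, 851 with 5 CPM, 2862 at 1.5-fold and 918 at 3-fold. The count lower with fumarate than with vehicle, 1045, was 2101, 489, 2045 and 539 in the same order, and the count higher with fumarate than in young, 710, was 1616, 298, 1582 and 319. Of 122 values past the limit among 55 other named genes, 20 fell inside it under at least 1 setting. Of the values inside it 4 went past it, Fcer1g (fumarate over vehicle, -1.15) and Atp8b4 (vehicle over young, 1.008) with T cell identity scaling and Mitf (vehicle over young, 1.05) and Ackr1 (fumarate over young, 2.41) with 0.1 CPM added. None of the 165 values turned in sign. The list counts were recomputed under the same settings, a choice made after seeing the data, and 12 of them moved by over 1.5 times, all with 5 CPM added or another fold limit. In the young library, the deepest, 5 of the 7 genes had 5 or fewer reads, so their ratios over young are known only within wide intervals.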

Other observations

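Some granule genes of other granulocytes were low in these libraries and highest in aged vehicle. The granule protease gene Ctsg, given above, stood higher, at 44.8 CPM in vehicle. Prg2, the major basic protein of eosinophils, was at 0.0732 CPM in young, 6.37 CPM in vehicle and 1.37 CPM with fumarate, and Epx, eosinophil peroxidase, was listed at 0 CPM in young and at 2.78 and 0.505 CPM in the aged libraries. Mpo, myeloperoxidase of neutrophils and their progenitors, was at 0.0488, 4.75 and 0.722 CPM, and Prtn3, proteinase 3, at 0.0732, 4.92 and 0.289 CPM. Of the neutrophil genes of later maturation, S100a8 and S100a9 were listed at 1.45 and 1.62 CPM in vehicle and at 0 in the other 2 libraries. Of the 9 listed neutrophil markers 5 were at 0 with fumarate, while Cxcr2 was at 0.577 CPM and Lcn2 at 0.289 CPM there. These genes were chosen after their values were seen.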
